A study of Mus musculus with 4 samples.

Results

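The MHC class II presentation genes studied here were H2-Aa, H2-Ab1, H2-Ea, H2-Eb1, H2-DMa, H2-DMb1, H2-DMb2, H2-Ob, Cd74 and Ciita, taken by the gene symbol of their probe sets. Of these 10 genes, 9 had a probe set of their own, among 22180 genes on the arrays. Cd74 had none, because its probe set also carried the symbol Mir5107, and neither gene was named from it. Each of the 9 genes had 1 probe set, so no second probe set of the same gene could be set against it.

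The RNA came from BALB/c mast cells in 4 groups with 1 array each. Bone marrow-derived mast cells (BMMCs), grown from bone marrow with interleukin-3 and stem cell factor at 10 ng/ml each over 3 to 4 weeks, were kept for 6 more days with TGF-beta1 at 5 ng/ml, with Chinese hamster ovary (CHO) cells carrying mouse Dll1, or in normal medium as the control. The fourth group was mucosal mast cells of the small intestine of naive mice. The Dll1 cells were selected on c-Kit with magnetic beads, the intestinal cells were sorted on FceRI and c-Kit, and no selection is stated for the other cultures. TGF-beta1 is a cytokine and Dll1 a ligand of Notch receptors. Coculture with hamster cells and bead selection came with Dll1, and source, tissue isolation and sorting came with the intestinal cells, so their effects cannot be told apart. No age, sex or number of mice was given.

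MHC class II molecules are pairs of an alpha and a beta chain that carry peptides from the endosome to the cell surface for CD4+ T cells. In the mouse the classical pairs are I-A (H2-Aa with H2-Ab1) and I-E (H2-Ea with H2-Eb1). The invariant chain Cd74 blocks the groove until it is cut, H2-DM (H2-DMa with an H2-DMb chain) then exchanges the remaining fragment for peptide, and H2-O (H2-Oa with H2-Ob) restrains H2-DM. The coactivator Ciita switches these genes on through factors already bound at their promoters, RFX at the X box and NF-Y at the Y box. B cells and dendritic cells express the pathway at rest, and mast cells are known to express it under some conditions. C57BL/6 mice, the source of the reference genome, have the b haplotype, in which a deletion removes the H2-Ea promoter, whereas BALB/c mice have the d haplotype and make I-E. RefSeq accordingly lists H2-Ea of C57BL/6J as a transcribed pseudogene. The chains are polymorphic, so probes made for the reference allele may bind the BALB/c allele less well, and levels were compared between arrays within a gene and never between genes.

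RefSeq start-site windows of 300 bases (build GRCm38.p6, 5′ to 3′ on the gene's strand) were available for 6 of the 10 genes, H2-Aa, H2-Eb1, H2-DMa, H2-DMb1, H2-DMb2 and H2-Ob. Those of 5 genes are shown because they carry the paired letters of the X and Y boxes. H2-Aa, H2-Eb1 and H2-DMb2 were among the genes called higher with Dll1 and in intestinal cells, while H2-DMb1 and H2-Ob were under the background limit on every array. Capitals mark TGATTGG, which holds the core of the Y box, and the AAC upstream of it, part of the X box. H2-Aa lies at chr17:34287774-34288073 on the minus strand, and the others are on the plus strand at chr17:34305617-34305916 (H2-Eb1), chr17:34144999-34145298 (H2-DMb2), chr17:34152941-34153240 (H2-DMb1) and chr17:34238655-34238954 (H2-Ob).
H2-Aa: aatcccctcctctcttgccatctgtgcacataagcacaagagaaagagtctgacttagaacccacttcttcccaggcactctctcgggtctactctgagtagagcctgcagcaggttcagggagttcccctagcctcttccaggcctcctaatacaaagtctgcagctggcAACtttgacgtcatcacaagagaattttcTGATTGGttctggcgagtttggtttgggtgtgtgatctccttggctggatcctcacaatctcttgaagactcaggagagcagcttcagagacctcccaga
H2-Eb1: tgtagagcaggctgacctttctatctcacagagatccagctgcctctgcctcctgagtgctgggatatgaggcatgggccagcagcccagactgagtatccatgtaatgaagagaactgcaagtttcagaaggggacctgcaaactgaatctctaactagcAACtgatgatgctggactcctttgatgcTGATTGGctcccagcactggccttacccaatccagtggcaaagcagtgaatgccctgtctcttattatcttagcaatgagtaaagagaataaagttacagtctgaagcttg
H2-DMb2: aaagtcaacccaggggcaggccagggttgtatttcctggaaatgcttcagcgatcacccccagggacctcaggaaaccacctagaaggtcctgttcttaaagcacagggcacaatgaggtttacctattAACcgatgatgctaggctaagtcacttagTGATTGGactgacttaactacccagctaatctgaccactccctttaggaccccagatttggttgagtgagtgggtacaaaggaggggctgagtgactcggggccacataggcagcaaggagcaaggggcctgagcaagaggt
H2-DMb1: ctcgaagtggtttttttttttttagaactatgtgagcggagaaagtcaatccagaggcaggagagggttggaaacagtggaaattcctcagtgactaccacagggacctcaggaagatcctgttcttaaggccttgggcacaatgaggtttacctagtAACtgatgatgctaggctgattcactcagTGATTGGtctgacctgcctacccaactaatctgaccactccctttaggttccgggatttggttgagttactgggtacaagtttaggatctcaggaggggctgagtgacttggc
H2-Ob: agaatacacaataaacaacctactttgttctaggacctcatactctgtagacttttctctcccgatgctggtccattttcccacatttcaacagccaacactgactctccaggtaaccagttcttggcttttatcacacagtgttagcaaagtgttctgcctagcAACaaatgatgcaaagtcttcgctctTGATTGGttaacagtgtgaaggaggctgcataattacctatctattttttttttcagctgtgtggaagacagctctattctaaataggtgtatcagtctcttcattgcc

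The first bases of the 3-letter and the 7-letter motif lay 29 bases apart in H2-Aa, H2-DMb1 and H2-DMb2, 28 bases in H2-Eb1 and 26 bases in H2-Ob. Counting both strands, the 7-letter motif was in 7.82% of 32851 RefSeq windows of this length, and the ordered pair, 26 to 29 bases apart, was in 0.46% of them. These letters and distances were chosen after the windows had been read, and a match is a description, not a binding site. Neither of the 2 windows of H2-DMa held the 7-letter motif, and the window of H2-Oa, the alpha chain of H2-O, held the pair, 29 bases apart. The windows of H2-DMb2 and H2-DMb1 were identical at 84.3% of 255 aligned bases.

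Mast cell markers lay above the background limit in each preparation, with a median log2 value of 11.44 with TGF-beta1, 11.41 with Dll1, 11.03 in intestinal cells and 11.63 in the control, over 6 genes (Kit, Fcer1a, Ms4a2, Cpa3, Hdc and Gata2). The lowest of these values was that of Hdc, the enzyme that makes histamine, at 5.68 with TGF-beta1. Genes of taste, vomeronasal and olfactory receptors, with 1443 probe sets, served as a gauge of background, and their 95th percentile set the limit on each array, 5.21 with TGF-beta1, 5.13 with Dll1, 5.11 in intestinal cells and 5.12 in the control. To be called different, a gene had to exceed the limit on either array of a pair and to differ by 2-fold or more once dim values had been set to the limit. A fold with a dim value on 1 side is a lower bound, written "at least". No group had replicates, so there was no error between samples and no test, and all differences describe these 4 arrays.

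The chains of I-A and I-E were high in the Dll1-cocultured and the intestinal cells and low in the other cultures. The beta chain H2-Ab1 had log2 values of 6.07 with TGF-beta1, 8.63 with Dll1, 8.69 in intestinal cells and 5.90 in control BMMCs. Its partner H2-Aa read 5.27, 6.26 and 6.92 in the same 3 groups, and 5.09 in the control. H2-Eb1 read 5.80 with TGF-beta1, 8.08 with Dll1, 7.74 in intestinal cells and 5.27 in the control. In all 3 genes the Dll1 and intestinal arrays lay above the TGF-beta1 and control arrays, and the control array was the lowest. H2-Ea, the alpha chain of I-E, read 4.50 with TGF-beta1, 9.05 with Dll1, 8.99 in intestinal cells and 4.70 in the control. It was below background on the TGF-beta1 and control arrays, the only classical chain below background on more than 1 array.

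The H2-DM genes differed from each other. H2-DMa read 6.76 with TGF-beta1, 7.47 with Dll1, 7.67 in intestinal cells and 6.70 in the control, above background on all 4 arrays with a range of 0.98. H2-DMb2 read 4.83 with TGF-beta1, 7.55 with Dll1, 7.88 in intestinal cells and 6.02 in the control, so that it fell under the limit on the TGF-beta1 array alone. H2-DMb1, the neighbouring copy, was under the limit on every array, between 4.71 and 5.02. Near-identical copies can share probes, so the split between H2-DMb1 and H2-DMb2 is uncertain. H2-Ob was also under the limit on every array, between 4.73 and 5.10.

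Ciita stayed close to background throughout. It read 4.97 with TGF-beta1, 5.53 with Dll1, 5.29 in intestinal cells and 5.10 in the control. The Dll1 and intestinal values were above the limit, by 0.40 and 0.18 on the log2 scale, and the other values were below it. The probe set annotated with both Cd74 and Mir5107, a microRNA, read 5.55 with TGF-beta1, 10.29 with Dll1, 9.65 in intestinal cells and 6.03 in the control.

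**Figure D1:**
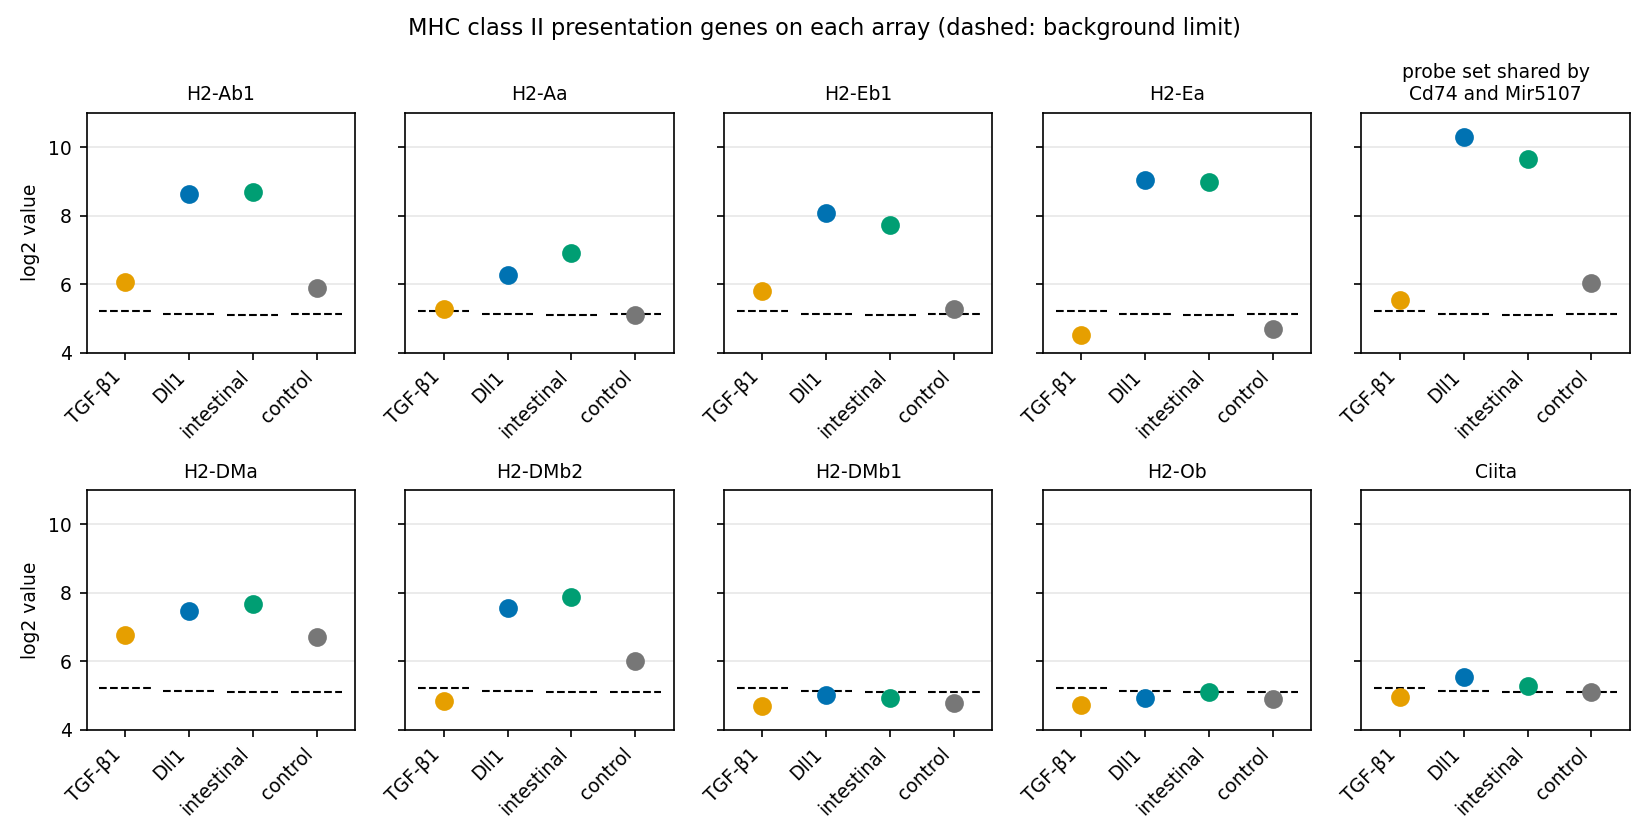
Log2 value (vertical axis) of each class II presentation gene and of the probe set shared by Cd74 and Mir5107, on the TGF-beta1, Dll1, intestinal and control arrays, 1 point per array, with the array's background limit as a dashed line. H2-Ab1, H2-Eb1 and H2-Ea lie between 7.74 and 9.05 on the Dll1 and intestinal arrays and at 6.07 or below on the others, while H2-DMb1 and H2-Ob are under the limit on all 4.

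Dll1 coculture was set against normal medium to ask what a Notch ligand did to the class II genes of cultured mast cells. H2-Ea was at least 15.3-fold, H2-Eb1 7.03-fold, H2-Ab1 6.62-fold, H2-DMb2 2.89-fold and H2-Aa at least 2.20-fold higher with Dll1. H2-DMa was 1.71-fold and Ciita at least 1.33-fold higher, both short of the 2-fold mark, and H2-DMb1 and H2-Ob could not be compared. Thus 5 of the 9 genes, or of the 7 above background, were called higher and none lower, where 1.64% of the 12761 genes tested were called higher and 1.78% lower. The genes had been chosen with these values known, so the count is a description. The call of H2-Aa was lost with the limit at the 99th percentile, where its log2 difference was at least 0.31. Over the 9 genes the median measured log2 difference was 1.17, against 0.02 over all 22180 genes. The shared probe set of Cd74 and Mir5107 was 19.1-fold higher. In bulk RNA, a larger share of cells that express a gene and more RNA per cell cannot be told apart.

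Intestinal mast cells were set against control BMMCs to ask how tissue mast cells differed from cultured ones. The same 5 genes were called higher and none lower. H2-Ea was at least 14.7-fold, H2-Ab1 6.89-fold, H2-Eb1 5.52-fold, H2-DMb2 3.63-fold and H2-Aa at least 3.48-fold higher in intestinal cells. H2-DMa was 1.97-fold higher, just under the mark, and Ciita at least 1.13-fold higher. Of 12722 genes tested 4.47% were called higher and 6.74% lower, so more genes differed here than with Dll1. With the limit at the 99th percentile H2-Aa again lost its call, at a log2 difference of at least 0.97. The median over the 9 genes was 1.83, against 0.00 over all genes. The shared probe set of Cd74 and Mir5107 was 12.2-fold higher. This comparison and the one before it share the control array, so a low control value would enter both.

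TGF-beta1 was set against normal medium to ask what this cytokine did. None of the 9 genes was called higher, where 0.507% of 12023 genes tested were, and none lower, where 0.89% were. H2-Eb1 had a log2 difference of 0.53, H2-Ab1 of 0.17 and H2-DMa of 0.06. H2-Aa was at least 1.11-fold higher and H2-DMb2 at least 1.75-fold lower with TGF-beta1. Genes with 2 probe sets above background gave a standard deviation of 0.24 between their log2 differences in this comparison, a gauge of technical spread that covers no difference between cultures. H2-Ab1, H2-Aa and H2-DMa lay within it, and H2-Eb1 and H2-DMb2 outside it. H2-Ea, H2-DMb1, H2-Ob and Ciita were under the limit on both arrays.

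**Figure D2:**
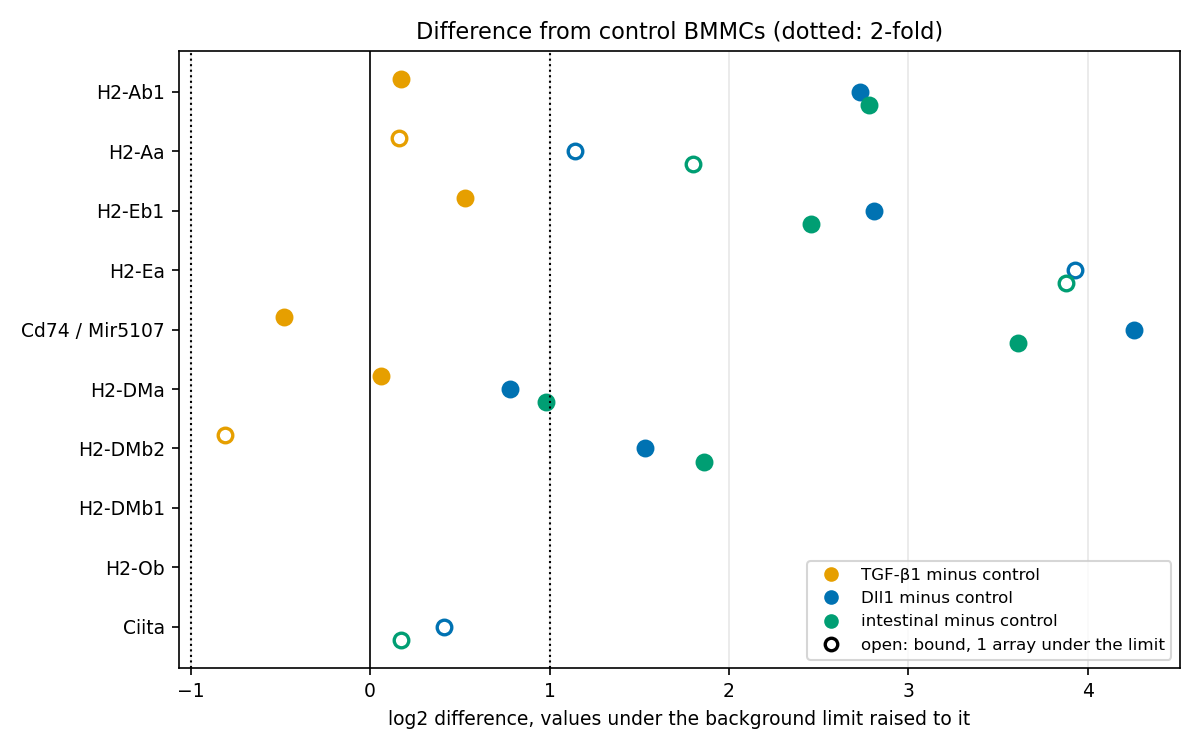
Log2 difference from control BMMCs (horizontal axis) of each class II presentation gene and the probe set shared by Cd74 and Mir5107, for TGF-beta1, Dll1 and intestinal cells, 1 point per comparison; open points are bounds, dotted lines mark 2-fold, and genes under the limit on both arrays have no point. H2-Ea, H2-Ab1, H2-Eb1, H2-DMb2 and H2-Aa pass 2-fold with Dll1 and in intestinal cells, and no gene does with TGF-beta1.

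Dll1-cocultured cells and intestinal cells, set against TGF-beta1-treated cells, gave comparisons without the control array. With Dll1, H2-Ea was at least 14.3-fold, H2-Ab1 5.89-fold, H2-DMb2 at least 5.06-fold and H2-Eb1 4.87-fold higher than with TGF-beta1. H2-Aa was 1.98-fold higher, just short of the mark, so 4 of 9 genes were called higher, where 2.19% of 12650 genes tested were. In intestinal cells, H2-Ea was at least 13.8-fold, H2-DMb2 at least 6.34-fold, H2-Ab1 6.14-fold, H2-Eb1 3.82-fold and H2-Aa 3.13-fold higher than with TGF-beta1. These made 5 of 9 genes, where 4.06% of 12551 genes tested were called higher. No gene was called lower in either comparison, where 1.90% and 4.56% of all genes tested were.

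Between the intestinal and the Dll1 arrays none of the 9 genes was called in either direction, where 3.56% of 13035 genes tested were called higher and 4.14% lower in intestinal cells. Intestinal minus Dll1 was 0.06 for H2-Ab1, -0.06 for H2-Ea, -0.35 for H2-Eb1, 0.33 for H2-DMb2, 0.20 for H2-DMa and -0.24 for Ciita on the log2 scale. All of these lay within the standard deviation of 0.39 between probe sets of a gene, so their order on these arrays is not settled. H2-Aa, at 0.66, lay outside it and was 1.58-fold higher in intestinal cells. With 1 array per group, this does not show that the levels were equal.

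The H2 genes lie together on chromosome 17, Ciita on chromosome 16 and Cd74 on chromosome 18. In RefSeq order from H2-Oa to Btnl2 the arrays measured 16 named genes, of which 8 were class II presentation genes studied here and 8 were others. Of the 8 others, 6 could be compared with the control for TGF-beta1, 6 for Dll1 and 7 for the intestinal array. None of these was called higher. The shares called higher over all genes tested were 0.507%, 1.64% and 4.47% in the same order. At such shares a list this short holds few or no higher calls, so their absence does not set these neighbours apart. With Dll1 the log2 differences of the neighbours ran between -0.65 and 0.48 over the 6 above background. In intestinal cells they ran between -1.50 and 0.69 over 7, and the peptide transporter gene Tap2 was called lower, at -1.50. Psmb9, Tap1, Psmb8 and Tap2, which serve class I presentation, lie between H2-DMb1 and H2-Ob. H2-Eb2, next to H2-Eb1, was under the limit on every array.

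**Figure D3:**
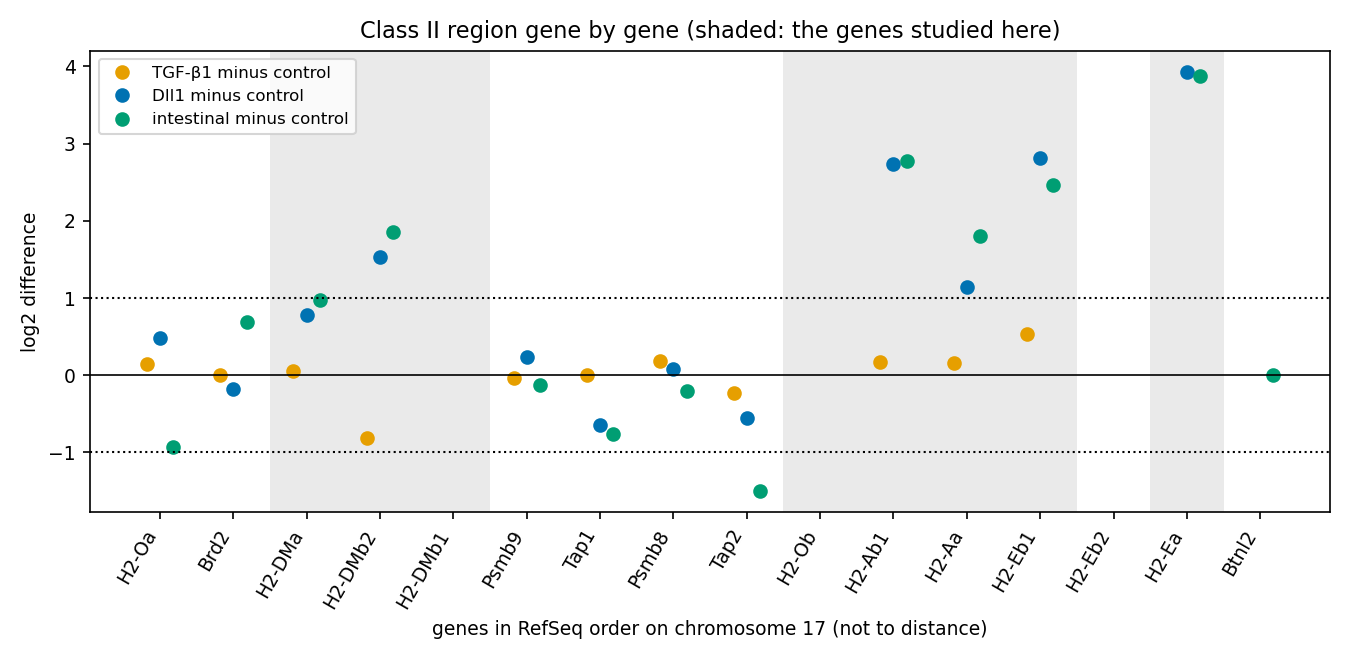
Log2 difference from control BMMCs (vertical axis) of 16 named genes in their RefSeq order on chromosome 17 (horizontal axis, not to distance), for TGF-beta1, Dll1 and intestinal cells; values under the limit were raised to it and genes under it on both arrays have no point. The shaded class II genes H2-DMb2, H2-Ab1, H2-Aa, H2-Eb1 and H2-Ea pass the dotted 2-fold line, and the class I genes between them do not pass it upwards.

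The factors that act on class II promoters were measured on every array and none was called different from the control. Counts over this and the following lists stand beside shares over all genes that leave few or no calls in a short list, 0.507% higher and 0.89% lower with TGF-beta1, 1.64% and 1.78% with Dll1, and 4.47% and 6.74% in intestinal cells. Of Rfx5, Rfxap and Rfxank (the RFX complex), Nfya, Nfyb and Nfyc (NF-Y) and Creb1, 7 of 7 were above background everywhere. Their median log2 difference was -0.10 for TGF-beta1, 0.06 for Dll1 and 0.21 for intestinal cells against the control. Rfx5 read 6.97 with TGF-beta1, 6.75 with Dll1, 6.26 in intestinal cells and 7.09 in the control. Nfya read 8.74, 8.89 and 9.60 in the same 3 groups and 8.73 in the control.

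Among 7 measured genes known to raise or restrain Ciita, 4 could be compared with TGF-beta1 and 4 with Dll1, and none of these was called. In intestinal cells the interferon-induced activator Irf1 was 2.07-fold and the repressor Prdm1 (Blimp-1) at least 2.44-fold higher, and Socs1, a brake on cytokine signalling, was lower by -2.31 on the log2 scale. The transcription factor Spi1 (PU.1) read between 5.88 and 6.12 on the 4 arrays. Interferon-gamma is the best known inducer of Ciita, and of 19 measured genes of its response 14 could be compared with Dll1 and none was called higher. Gbp4 was called lower with TGF-beta1 (-1.60) and with Dll1 (-3.59). In intestinal cells Gbp3 was called higher, and Gbp4 (-2.81) and Irgm2 (-1.18) were called lower. Ifng itself was under the limit on every array.

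Of 7 genes that cut the invariant chain or prepare antigen in the endosome, Lgmn (asparagine endopeptidase) was called higher in both groups with high class II levels. It read 5.57 with TGF-beta1, 7.16 with Dll1, 7.69 in intestinal cells and 6.07 in the control, 2.13-fold higher with Dll1 and 3.08-fold higher in intestinal cells. Ctss (cathepsin S), which makes the last cut of the invariant chain in B cells and dendritic cells, read 6.69, 6.59 and 7.69 in the same 3 groups and 6.65 in the control. It was 2.05-fold higher in intestinal cells, and Ctsd (cathepsin D) was lower there by -1.19. Ifi30 (GILT, a reductase of antigen disulfides) read 7.91 with TGF-beta1, 6.69 with Dll1, 6.81 in intestinal cells and 6.95 in the control, highest with TGF-beta1 but short of 2-fold there.

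H2-Oa did not follow the classical chains. Its partner H2-Ob was under the limit on every array, so the pair could not be compared. H2-Oa read 7.42 with TGF-beta1, 7.76 with Dll1, 6.36 in intestinal cells and 7.28 in the control. The intestinal array was the lowest, at -0.93 against the control, just short of 2-fold. H2-Oa was called lower in intestinal cells than with TGF-beta1 (-1.06) and than with Dll1 (-1.41). Of 7 genes of class II turnover and the endosome, 6 could be compared with the control in each group. The list's median log2 difference was 0.02 with Dll1 and 0.15 in intestinal cells, and Cd63, Cd82, Cd83 and Lamp1 were not called. The tetraspanin Cd81 read 5.07 with TGF-beta1, 6.49 with Dll1, 6.40 in intestinal cells and 5.15 in the control, called higher in both groups with high class II levels. Marchf8, a membrane ubiquitin ligase that can send class II molecules for degradation, read 8.85, 8.25 and 6.83 in the same 3 groups and 9.03 in the control, lower in intestinal cells by -2.20. Marchf1, its relative in B cells and dendritic cells, was under the limit on every array.

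Of 15 measured genes of MHC class I presentation, 14 could be compared in each case and none was called with TGF-beta1 or Dll1, which is close to the shares over all genes. In intestinal cells Erap1, a peptide-trimming enzyme, was called higher (1.46) and Tap2 lower. B2m, the light chain of class I, read 11.37 with TGF-beta1, 11.50 with Dll1, 11.58 in intestinal cells and 11.45 in the control. The median log2 difference of the list was 0.01 for TGF-beta1, 0.05 for Dll1 and 0.08 for intestinal cells against the control.

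**Figure D4:**
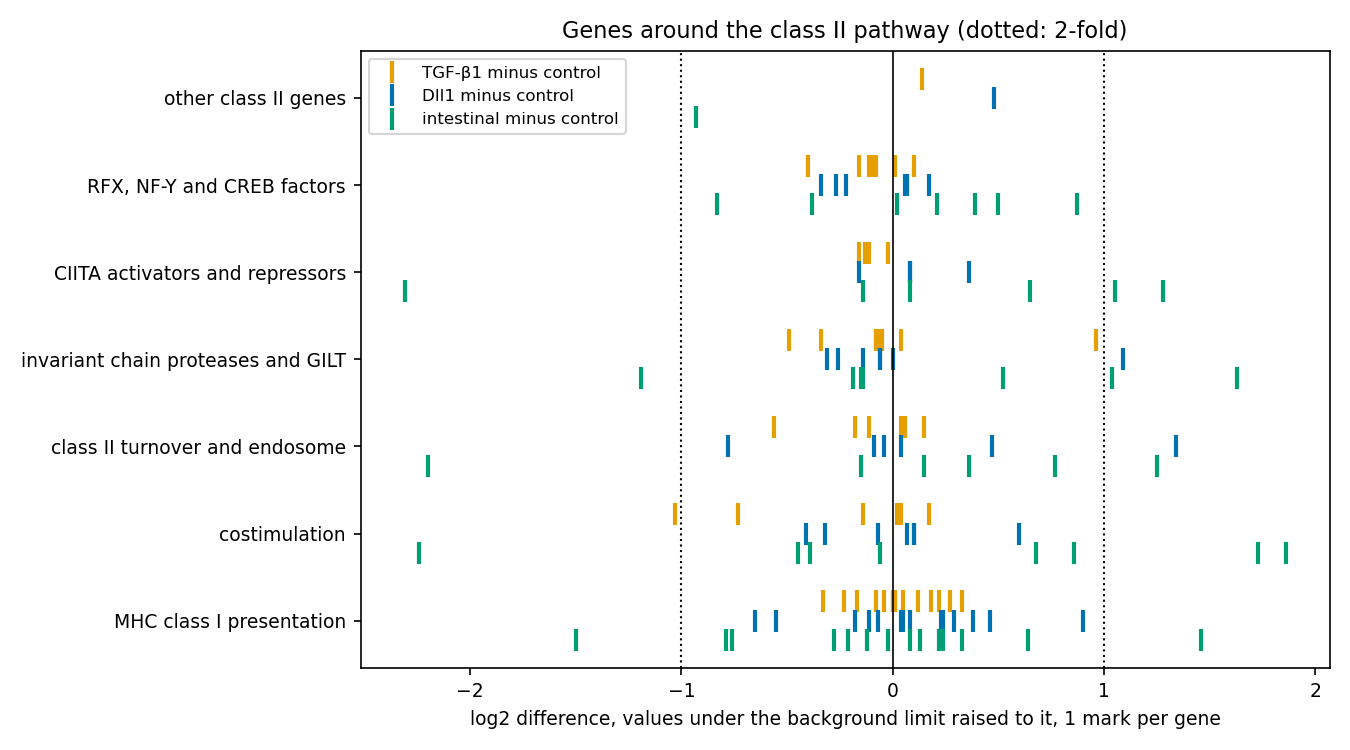
Log2 difference from control BMMCs (horizontal axis) for genes of 7 lists around the class II pathway (the interferon-gamma response is not among them), for the TGF-beta1, Dll1 and intestinal arrays; each mark is 1 gene above the limit on either array, and dotted lines mark 2-fold. No RFX, NF-Y or CREB gene passes 2-fold, and with Dll1 Lgmn and Cd81 are the plotted genes that do.

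Markers of other cells that carry class II molecules, or that could be in the sort, were read on the same arrays as a summed level, the log2 of the summed linear values of a list, which is compared between arrays within a list and not between lists. The class II genes themselves summed to 8.66 with TGF-beta1, 10.77 with Dll1, 10.81 in intestinal cells and 8.71 in the control. B cell markers summed to 7.82, 7.84 and 8.21 in the same 3 groups and 7.90 in the control, with 1, 2, 5 and 3 of 7 genes above background. Ms4a1 and Blk were under the limit on every array, and Cd22 was called higher in intestinal cells, at 6.31. Cd79a (5.56) and Cd79b (5.34) were above the limit on the intestinal array alone, without a call, and Fcrla was lowest there, at 5.27. The part of B cells in the class II levels was not tested.

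Dendritic cell markers summed to 9.95 with TGF-beta1, 9.10 with Dll1, 11.38 in intestinal cells and 9.65 in the control, with 4, 6, 6 and 1 of 9 above background. Zbtb46 and Siglech were under the limit on every array, and Flt3 read at most 5.22. Itgax (CD11c) read 11.19 in intestinal cells, 5.22 with TGF-beta1, 5.27 with Dll1, and 4.86 in the control BMMCs. Cd209a, a C-type lectin of dendritic cells, ran the other way, at 9.50 with TGF-beta1, 7.96 with Dll1, 6.55 in intestinal cells and 9.13 in the control, called lower with Dll1 and in intestinal cells. The list's median log2 difference from the control was 0.38 with Dll1 and 0.09 in intestinal cells. Macrophage markers summed to 9.83 with TGF-beta1, 10.16 with Dll1, 10.95 in intestinal cells and 9.95 in the control, with 6, 5, 8 and 5 of 9 above background, and C1qa, C1qb and Csf1r were called higher in intestinal cells. The part of dendritic cells and macrophages in the intestinal class II levels was not tested.

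Some markers of granulocytes, lymphocytes and epithelium were called as well. Eosinophil markers summed to 11.78 with Dll1 and 8.79 in intestinal cells, against 7.57 with TGF-beta1 and 7.87 in the control, with 4, 4, 2 and 3 of 6 above background. The granule protein Prg2 read 11.45 with Dll1, against 5.40 in the control. Epx and Alox15 were also called higher with Dll1. Siglecf and Il5ra were under the limit on that array, and Ccr3 read 5.58, against 5.93 in the control. In intestinal cells Siglecf and Alox15 were called higher. The median log2 difference of the eosinophil list was 1.09 with Dll1 and 0.07 in intestinal cells. Neutrophil markers summed to 10.71 with Dll1 and 7.98 in intestinal cells, against 8.13 with TGF-beta1 and 8.21 in the control, with 8, 1, 2 and 2 of 9 above background. With Dll1, 5 of these genes were called higher and Ly6g lower. Basophil markers summed to 11.38 with Dll1 and 11.16 in intestinal cells, against 9.91 with TGF-beta1 and 10.34 in the control, where Mcpt8, a granule protease, was the 1 gene of 5 called higher in both. Cd200r3, a receptor of basophils and mast cells, was called lower in intestinal cells (-3.78), and the median log2 difference of the list was -0.21 with Dll1 and -0.81 in intestinal cells. T cell and innate lymphoid cell markers summed to 9.66 with Dll1 and 11.40 in intestinal cells, against 8.30 with TGF-beta1 and 8.53 in the control, with 5, 10, 3 and 4 of 10 above background. Cd3e, Cd3g, Cd3d, Cd4 and Cd8a were under the limit on the Dll1 array, and the genes called higher there were Gzma (7.92), Nkg7 (7.34) and Il7r (7.08). In intestinal cells Gzma (10.33), Cd3g (8.84), Nkg7 (8.70) and Cd3e (7.53) were called higher and none of the list lower. Intestinal epithelium markers summed to 8.63 with Dll1 and 10.88 in intestinal cells, against 8.90 with TGF-beta1 and 8.54 in the control, with 4, 8, 3 and 4 of 10 above background. In intestinal cells 6 of these genes were called higher, among them Cdh1 (10.12), and none lower. Cdh1 was also called higher with TGF-beta1, and Epcam and Vil1 were under the limit on every array. The part of granulocytes, lymphocytes and epithelium in the class II levels was not tested.

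**Figure D5:**
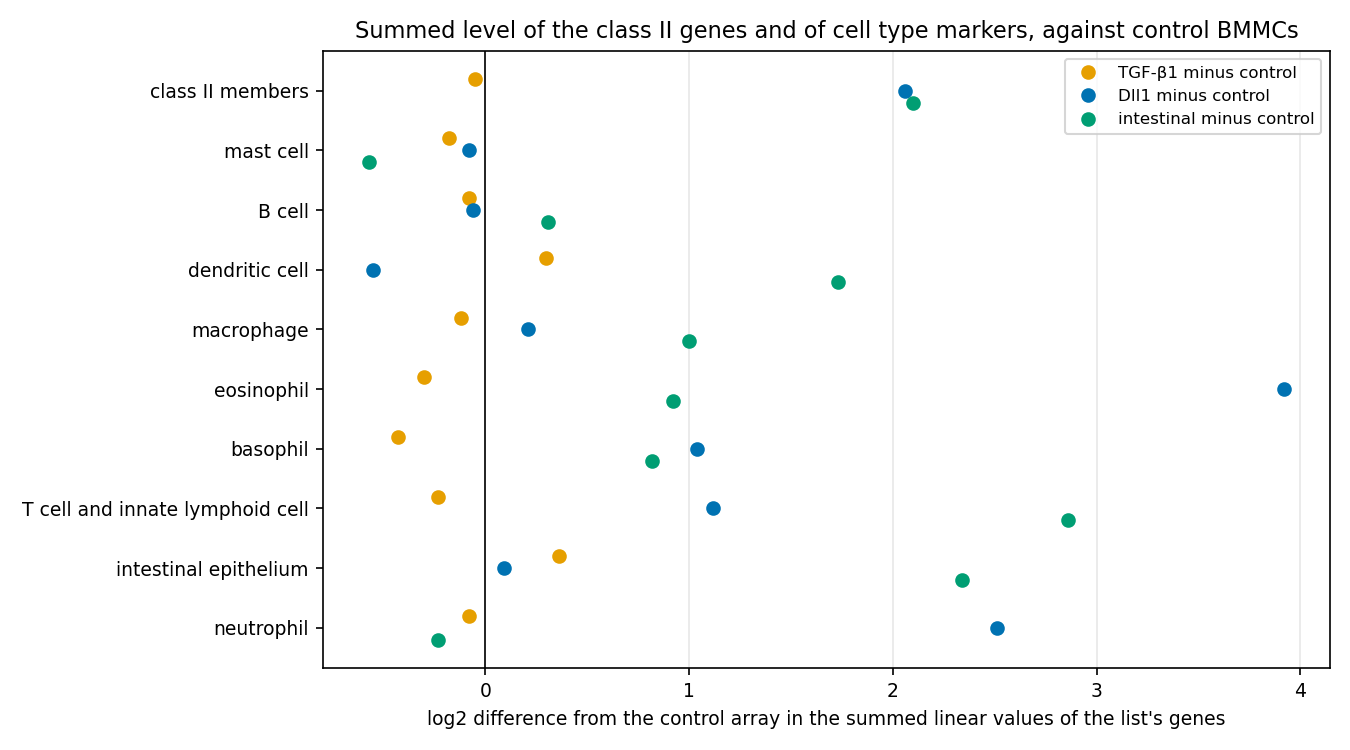
Summed level (log2 of the summed linear values) of the class II presentation genes and of 9 lists of cell type markers, as the difference from the control array (horizontal axis, log2), 1 point for each of the TGF-beta1, Dll1 and intestinal arrays. For the class II genes the difference is 2.06 with Dll1 and 2.10 in intestinal cells, for B cell markers it runs between -0.08 and 0.31, and neutrophil markers are above the control on the Dll1 array alone.

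The profile shared by the 5 class II genes called in any comparison was low with TGF-beta1 and in the control and high with Dll1 and in intestinal cells, at -1.37, 1.25, 1.38 and -1.27 around the mean of a gene in the order TGF-beta1, Dll1, intestinal, control. The 8 genes nearest to it outside the class II genes, by Euclidean distance between centred log2 values on 4 arrays, were Egr3 (0.37), Gpr183 (0.46), Retreg1 (0.48), Ier2 (0.49), Alox15 (0.50), Mcpt8 (0.55), Dcaf5 (0.57) and Ctsg (0.59). Egr3 and Ier2 are immediate early genes, Gpr183 is an oxysterol receptor of immune cells, Alox15 is a lipoxygenase, and Mcpt8 and Ctsg are granule proteases. Among the class II genes the distance ran between 0.20 for H2-Ab1 and 1.80 for H2-Ea, whose TGF-beta1 and control values were under the limit. Of 12225 genes compared, 202 were as near as H2-Ea or nearer.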

How the data were processed

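The deposited series table held log2 values of 33793 probe sets on 4 Affymetrix arrays, between 4.13 and 13.14. Per the labels' protocols, each labelling reaction began with 2 ng of RNA and included amplification. Which software summarised and normalized them, and on which build, is not given in the sources used here. Set in order of size, the values of the arrays were 0.06 apart on average and 0.25 at the widest, so the authors' table was used as it stood. Precision is limited by the number of arrays, and there is no read depth.

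Symbols came from the platform annotation. It gave 1 symbol to 23521 probe sets, several to 1814 and none listed to 8458. Of a gene's probe sets (1082 genes had several) the one with the highest mean was used. Promoter sequences are RefSeq's, build GRCm38.p6. Python 3.11.15, pandas 2.3.3 and Biopython 1.88 were used.

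The 10 genes and all gene lists were chosen with earlier results of these data known. Genes outside the 10 were named by rule, which took those of the related lists called against the control, promoter factors, proteases, H2-Oa, defining markers and the 8 most alike genes. Genes named besides these as examples below the 2-fold mark were chosen after their values were seen. The calls were tested on simulated data with known changes, placed only in genes well above the background limit. Recovery of changes in genes near or under the limit, such as H2-Ea and H2-Aa in the control, was not covered. Alternatives covered normalization, limit, probe set, offset and fold. Those on the probe set could not alter the 9 class II genes, which had 1 probe set each.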

Additional observations from a re-analysis of the deposited data

Results flagged for a closer look

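H2-DMb2 lay on opposite sides of the control between groups, though it was not called with TGF-beta1. Its log2 difference was -0.81 with TGF-beta1, a bound because that value was under the background limit, 1.53 with Dll1 and 1.86 in intestinal cells. The difference between these effects was not tested, since each group had 1 array.

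The probe set annotated with both Cd74 and Mir5107 was outside the counts because it carries 2 symbols. Its log2 difference from the control was 4.26 with Dll1 and 3.61 in intestinal cells, and -0.48 with TGF-beta1.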

How the results depend on the processing

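No paired analysis was possible because each group had 1 array. Of 132 recounts of called class II genes under other settings, 124 stayed within 1.5 times the reported count. These include counts of 0 that stayed at 0. They also include recounts under other choices of probe set, which could not change because each gene counted had 1 probe set. With a limit at the 90th percentile, no limit, an offset of 16 subtracted or a 1.5-fold threshold, 1 gene was lower with TGF-beta1 than in the control, against 0 as reported. At 1.5-fold, 1 gene was higher in intestinal than in Dll1 cells, against 0. At 4-fold, 3 genes were higher with Dll1 than in the control, 3 in intestinal cells than in the control and 3 in intestinal cells than with TGF-beta1, against 5 each. Counting the shared probe set of Cd74 and Mir5107 too, which was decided after seeing the data, gave 6 genes higher with Dll1 and 6 in intestinal cells than in the control. Of 313 recomputed log2 differences, 276 moved by less than the spread between probe sets, 37 moved further and none of the called ones changed sign. The 276 include those under other choices of probe set, which could not move for the same reason. With the limit at the 99th percentile H2-Aa lost its call with Dll1 (0.31) and in intestinal cells against the control (0.97). With the offset subtracted, H2-Aa reached 1.42 for Dll1 minus TGF-beta1. H2-DMa passed 2-fold for intestinal minus control, at 1.04 with quantile normalization repeated and 1.10 with the offset subtracted. Either setting gave 6 genes higher there. It also reached 1.03 for intestinal minus TGF-beta1 with the offset subtracted. Values near the floor of the arrays, those of Ciita, H2-DMb1 and H2-Ob, are compressed, and differences there may be missed.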

Other observations

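Costimulatory and adhesion molecules, which T cells read beside class II, were called higher for 2 and lower for 1 of the 8 genes that could be compared in intestinal cells, where 4.47% of all genes tested were called higher and 6.74% lower. With Dll1 none of 7 was called, where 1.64% and 1.78% of all genes were. Cd80 read 6.98 in intestinal cells, 4.63 with TGF-beta1, 4.63 with Dll1, and 4.68 in the control BMMCs, so it was above background on the intestinal array alone and at least 3.63-fold higher than in the control. Icam1, an adhesion ligand of T cells, read 7.81 with TGF-beta1, 7.58 with Dll1, 9.38 in intestinal cells and 7.65 in the control. Tnfsf4 (OX40 ligand) read 6.62, 6.94 and 5.09 in the same 3 groups and 7.36 in the control, lower in intestinal cells. Cd274 (PD-L1) read 6.12 with TGF-beta1, 7.75 with Dll1, 7.82 in intestinal cells and 7.15 in the control, and was lower with TGF-beta1 by -1.03. Cd40 read between 5.00 and 5.24, near the limit on all 4 arrays.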
